A study of Mus musculus with 6 samples.

Results

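BAX, BAK and the BH3-only proteins are the killing arm of the BCL2 family, and their transcripts were measured in type-2 innate lymphoid cells (ILC2s) from visceral adipose tissue (VAT). The 10 members examined were Bax and Bak1, which encode the effectors, and Bid, Bad, Bbc3, Pmaip1, Bcl2l11, Bmf, Bik and Hrk, which encode BH3-only proteins. They were chosen by gene symbol from a table of 53278 genes, as the named genes of this family, and with earlier results of these data known. Of the 10 members, 9 had enough counts to be tested and Hrk had none.

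BAX and BAK permeabilize the outer mitochondrial membrane, which releases cytochrome c and commits a cell to apoptosis. Pro-survival proteins such as BCL2 and MCL1 hold them in check, and BH3-only proteins bind these guardians, or the effectors themselves, through a short helix called the BH3 domain. In lymphocytes, BIM (the product of Bcl2l11) is a main trigger of death after withdrawal of cytokines such as IL-2 and IL-7, whereas PUMA (Bbc3) and NOXA (Pmaip1) are classical targets of p53.

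ILC2s were sorted from VAT of C57BL/6 mice, 8 weeks of age, which had been given 3 intraperitoneal injections of 1 µg of recombinant IL-33. By the study's methods the sort kept cells that lacked lineage markers and carried CD45, ST2 and CD117. All cells were then cultured with IL-2 (10 ng/mL) and IL-7 (10 ng/mL), together with either 5 µg/mL of DTA-1, an agonistic antibody to the costimulatory receptor GITR, or the isotype control. The labels give 48 h of culture, whereas another passage of the study gives a shorter time. Each group had 3 libraries, each made from 10 ng of RNA, and nothing states whether the libraries came from separate mice or cultures, so that p-values measure only the spread between these libraries. The question was which transcripts differed between cells cultured with DTA-1 and with isotype control.

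To show what unites the members beyond their names, coding sequences were searched for the core of the BH3 domain. This was taken as 6 successive codons: leucine, 3 codons of any kind, then glycine, alanine or serine, then aspartate. All 10 members held such a core, as did 33.8% of the 21755 mouse genes searched, so that the letters alone do not define the family. Each line below gives the coding strand, 5′ to 3′, with the 18 bases of the core in capitals and 6 bases on either side.
Bax: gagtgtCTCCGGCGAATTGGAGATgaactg
Bak1: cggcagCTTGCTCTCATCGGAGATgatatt
Bid: agacatCTCGCCCAAATAGGCGATgagatg
Bad: cgtgagCTCCGAAGGATGAGCGATgagttt
Bbc3: gcccagCTGCGGCGGATGGCGGACgacctc
Bcl2l11: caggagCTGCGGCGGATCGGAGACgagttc
Bmf: agaaagCTTCAGTGTATTGCAGACcagttc
Bik: ttgaggCTGGCCTGCATCGGCGATgagatg
Hrk: ctgcggCTGCAGGCGCTGGGCGACgagctg

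In the GRCm38 genome each of these cores lay in a single coding exon. The core of Bax was at chr7:45466006-45466023 on the minus strand, that of Bak1 at chr17:27022540-27022557 on the minus strand, and that of Bid at chr6:120897298-120897315 on the minus strand. The core of Bad was at chr19:6950792-6950809 and that of Bbc3 at chr7:16313773-16313790, both on the plus strand. Bcl2l11 had its core at chr2:128147150-128147167 on the plus strand and Bmf at chr2:118545109-118545126 on the minus strand. The cores of Bik at chr15:83543084-83543101 and Hrk at chr5:118169891-118169908 were on the plus strand. Pmaip1, whose mouse protein carries a pair of BH3 domains, held 2 such cores, which are not shown. Among the printed cores, those of Bbc3 and Bcl2l11 were closest, with 15 of 18 bases in common, followed by Bax and Bcl2l11 with 14. The fifth codon was for glycine in Bax, Bak1, Bid, Bcl2l11, Bik and Hrk, for alanine in Bbc3 and Bmf, and for serine in Bad.

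The deposited values were expected counts, that is read numbers estimated for each gene, and the 6 libraries held 30569351 to 35131329 of them. Values below are normalized counts, that is counts divided by library size (CPM) after trimmed mean (TMM) scaling between libraries. A count of 0 allows up to 3 counts, or 0.0854 to 0.0981 CPM, for counting error only. Groups were compared by the quasi-likelihood test of edgeR with Benjamini-Hochberg adjustment over the 14361 genes tested. A gene was called when its adjusted p was under 0.05 and its change at least 1.5-fold. The ILC2 transcripts Gata3 (1525 to 1716), Il1rl1, which encodes ST2 (1022 to 1286), and Tnfrsf18, which encodes GITR (657 to 756), were abundant in all 6 libraries. All 15 ILC2 markers were detected, whereas summed markers of other lineages were at most 54.7 for T cells, 18.2 for B cells, 12.2 for macrophages, 10.3 for fibroblasts, 1.05 for neutrophils, 0.125 for mesothelial cells and 0.0320 for adipocytes. Cd8a, Ms4a1, Pax5, C1qb, S100a8, S100a9 and Elane were at 0.

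By its counts, the library labelled DTA-1 replicate 1 stood close to isotype control. Measured as chi-square per degree of freedom, it lay 10.1 to 11.9 from the isotype libraries but 29.0 from DTA-1 replicate 2 and 30.5 from replicate 3, and the isotype libraries lay 12.0 to 18.4 from each other. By the root mean square difference of log2 values across genes the contrast was small, with 0.607 to 0.641 from the isotype libraries, 0.651 and 0.660 from the other DTA-1 libraries, and 0.590 to 0.601 between isotype libraries. Whether the label of this library is right is not known, and all DTA-1 means, fold changes and intervals over 6 libraries rest on it. For that reason each member is given with and without it. The library was singled out by its values in these same data, so p-values from fits without it can be too small. With all libraries 0 genes were called, whereas without DTA-1 replicate 1 the same test called 111 of 14911 genes (0.744%).

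Bax was by far the most abundant member and lay lower in DTA-1 replicates 2 and 3 than in every isotype library. Of the other members, Bak1 was lower and Bid higher in all 3 DTA-1 libraries than in isotype control, and Bad, Bbc3, Bcl2l11, Bmf and Bik were lower in DTA-1 replicates 2 and 3 but not in replicate 1. Over all genes tested, the groups did not overlap for 11.3%, and DTA-1 replicates 2 and 3 both lay below all isotype libraries for 16.1%. None of the members' differences passed the threshold. With all 6 libraries the fitted change was under 1.5-fold for each of the 9 members, and without DTA-1 replicate 1 for all but Bmf. With all 6 libraries 0 of 9 members were called by edgeR (0% of all genes tested). DESeq2 called 0 of them as well (0.152% of the 16489 genes given an adjusted p there, and 0.188% without the fold limit). By unadjusted p under 0.05, Bax was the 1 member to pass in edgeR (7.22% of all genes, 3.11% with a lower fitted value). In DESeq2 1 member, again Bax, passed (7.13% of the 16489 genes). With a 1.5-fold limit added to the unadjusted p, 0 of 9 members passed in edgeR (2.35% of all genes).

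**Figure D1:**
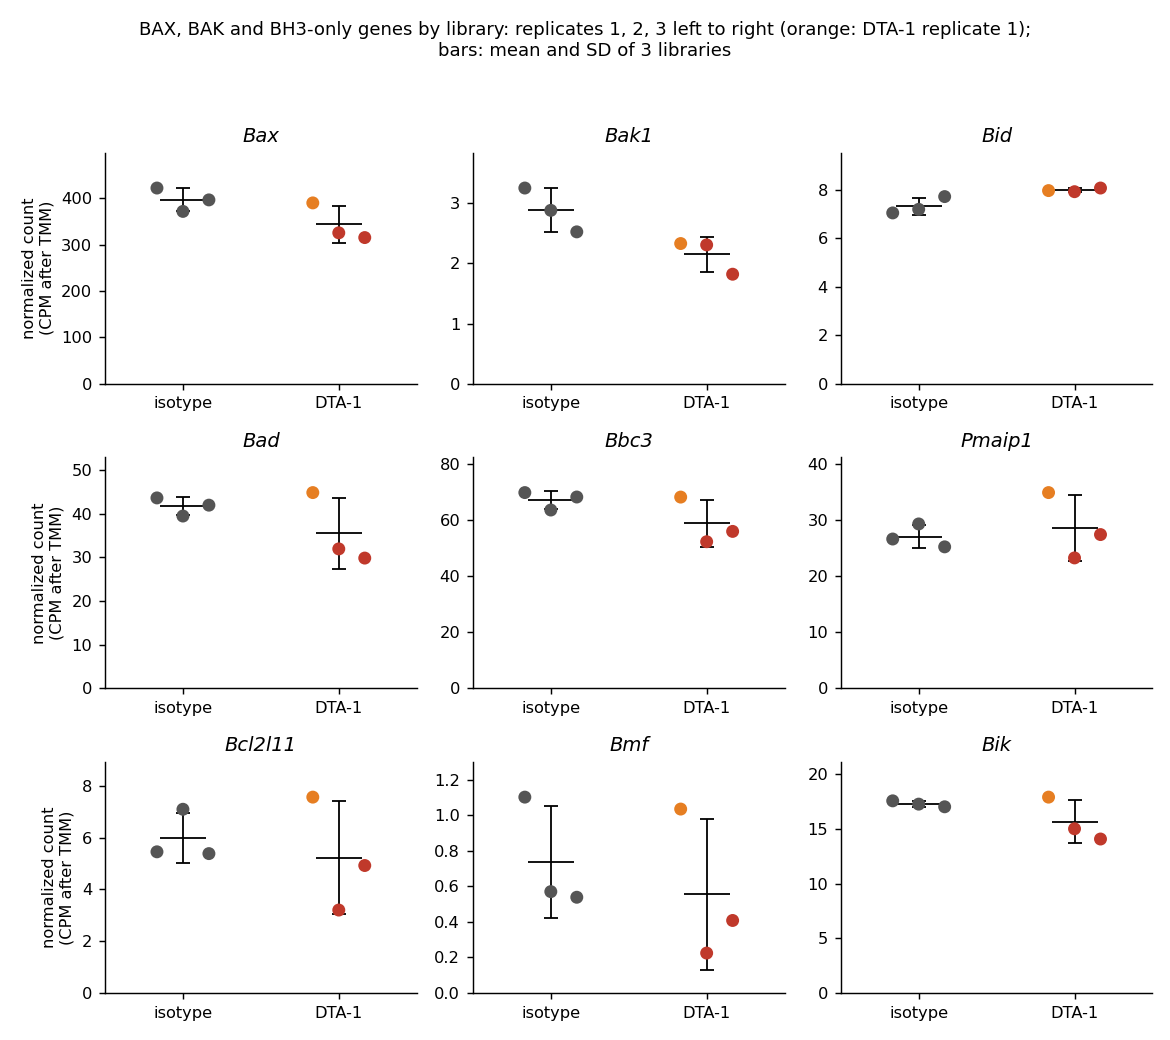
Normalized count (CPM after TMM, linear axis from 0) of the 9 detected members in each library, with replicates 1 to 3 from left to right, isotype control in grey, DTA-1 replicate 1 in orange and DTA-1 replicates 2 and 3 in red. Horizontal bars and whiskers are the mean and SD of 3 libraries. Bax reached 315 to 422 and Bmf at most 1.10, and the orange point was the highest DTA-1 value for 8 of the 9 members.

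Bax (chr7:45461697-45466898, minus strand) encodes the effector that is cytosolic in healthy cells and moves to mitochondria in dying ones. Its normalized counts were 422, 371 and 396 in isotype control against 389.8, 325 and 315 in DTA-1. The DTA-1 replicate 1 value fell within the isotype range, whereas replicates 2 and 3 were below it, so that the groups overlapped through this library alone. Means were 396 ± 25.2 and 343 ± 40.5 (SD, n = 3 each). The log2 fold change was −0.21 (95% CI −0.40 to −0.02), with an unadjusted p of 0.0346 and an adjusted p of 0.657 in the edgeR fit (0.000941 to 0.999 over the alternatives). The smallest of these came from DESeq2 on DTA-1 replicates 2 and 3, a comparison added after the values were seen. Leaving out DTA-1 replicate 1 gave −0.31 (95% CI −0.46 to −0.16) and an adjusted p of 0.0555 by edgeR, still above the threshold. With 10044 to 14925 counts in a library, Bax was the most precisely counted member. A predicted gene on the same strand, Gm45808, overlaps it, but had at most 13.6 counts.

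Bak1 (chr17:27019810-27029009, minus strand) encodes the effector that resides on mitochondria. Its normalized counts were 3.25, 2.88 and 2.52 in isotype control against 2.33, 2.31 and 1.82 in DTA-1. Each DTA-1 library lay below each isotype library, including DTA-1 replicate 1. Non-overlapping groups with DTA-1 lower were seen for 6.03% of all genes tested, and groups not overlapping in either direction for 11.3%. The log2 fold change was −0.42 (95% CI −1.04 to 0.20), with an edgeR adjusted p of 0.771 (0.553 to 0.999 over the alternatives), and −0.48 (95% CI −1.19 to 0.22) without DTA-1 replicate 1. The estimate rested on 57.6 to 115 counts in a library, and Bak1 lies wholly within Ggnbp1 on the opposite strand, which had 13.7 to 32.9 counts. Because the use of strand in counting is not stated, reads of the 2 genes cannot be told apart where their exons overlap.

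Bid (chr6:120891930-120916853, minus strand) encodes the BH3-only protein that caspase-8 cleaves, and so links death receptors to mitochondria. Bid had 7.04, 7.19 and 7.71 normalized counts in isotype control against 7.96, 7.91 and 8.06 in DTA-1. Every DTA-1 library lay above every isotype library (5.26% of all genes tested), though the highest isotype library came close to the lowest DTA-1 library. The log2 fold change was 0.13 (95% CI −0.24 to 0.49), with an adjusted p of 0.906 in edgeR (0.829 to 1.00 over the alternatives), and was again 0.13 without DTA-1 replicate 1, where non-overlapping groups with DTA-1 higher were seen for 15.4% of all genes. Bid was the member least altered by leaving out that library. The gene span of Bid shares 913 bases with that of Bcl2l13, a BCL2-related gene on the opposite strand. Bcl2l13 had 2021 to 2316 counts, against 246 to 272 for Bid. Whether their exons overlap was not checked, and if they do, the value of Bid is uncertain if strand was not used. Gm44260, on the same strand as Bid, shares 2094 bases of its span and had 4 to 10 counts.

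Bad (chr19:6941861-6951898, plus strand) encodes a BH3-only protein that AKT and PIM kinases hold inactive by phosphorylation. Normalized counts of Bad were 43.6, 39.5 and 41.95 in isotype control against 44.8, 31.9 and 29.8 in DTA-1. DTA-1 replicate 1 was the highest of all 6 libraries, and replicates 2 and 3 were the lowest pair. Bad had a log2 fold change of −0.23 (95% CI −0.55 to 0.08), with an adjusted p of 0.754 by edgeR (0.0131 to 0.999 over the alternatives). Without DTA-1 replicate 1 it was −0.43 (95% CI −0.66 to −0.20), with an edgeR adjusted p of 0.0803. Gpr137, on the opposite strand, shares 590 bases of gene span with Bad. It had 411 to 598 counts, against 951 to 1543 for Bad.

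Bbc3 (chr7:16308393-16318205, plus strand) encodes PUMA, which binds all main pro-survival proteins. Bbc3 had 69.9, 63.7 and 68.3 normalized counts in isotype control against 68.3, 52.4 and 56.1 in DTA-1. The pattern was that of Bax, with DTA-1 replicate 1 inside the isotype range and the other DTA-1 libraries below it. Bbc3 thus had a log2 fold change of −0.19 (95% CI −0.42 to 0.04), with an adjusted p of 0.738 by edgeR (0.0475 to 0.999 over the alternatives). Without DTA-1 replicate 1 it was −0.31 (95% CI −0.51 to −0.12), with an edgeR adjusted p of 0.134.

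Pmaip1 (chr18:66458604-66465550, plus strand) encodes NOXA, which binds MCL1 and promotes its degradation. Its normalized counts were 26.6, 29.3 and 25.2 in isotype control against 34.9, 23.3 and 27.4 in DTA-1. DTA-1 replicate 1 was the highest and DTA-1 replicate 2 the lowest of the 6 libraries, so that the DTA-1 group enclosed the isotype group. The log2 fold change of 0.08 (95% CI −0.25 to 0.40; edgeR adjusted p 0.942, 0.808 to 1.00 over the alternatives) turned to −0.09 (95% CI −0.38 to 0.19) without DTA-1 replicate 1. Mcl1 itself was at 291 to 324 in isotype control and 302 to 325 in DTA-1.

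Bcl2l11 (chr2:128126038-128162547, plus strand) encodes BIM. Bcl2l11 had 5.45, 7.10 and 5.39 normalized counts in isotype control against 7.57, 3.20 and 4.93 in DTA-1. Again DTA-1 replicate 1 was the highest of the 6 libraries and replicates 2 and 3 were the lowest. In the fit Bcl2l11 had a log2 fold change of −0.19 (95% CI −0.84 to 0.46), with an adjusted p of 0.922 by edgeR (0.400 to 1.00 over the alternatives). It was −0.56 (95% CI −1.16 to 0.05) without DTA-1 replicate 1 and 0.07 without DTA-1 replicate 2, so its direction rested on single libraries.

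Bmf (chr2:118528757-118549687, minus strand) encodes a BH3-only protein that binds the dynein light chain DYNLL2. It was near the limit of detection, with 39, 20 and 19 counts in isotype control and 32, 7 and 13 counts in DTA-1. These equalled 1.10, 0.570 and 0.539 normalized counts against 1.04, 0.224 and 0.408. The first replicate was the highest library in each group. For Bmf the log2 fold change was −0.41 (95% CI −1.80 to 0.98; edgeR adjusted p 0.922, 0.500 to 1.00 over the alternatives), and −1.21 (95% CI −2.80 to 0.37) without DTA-1 replicate 1. The first interval held changes of more than 1.5-fold in either direction, so no statement on Bmf was possible at this depth.

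Bik (chr15:83526862-83544635, plus strand) encodes a BH3-only protein with a membrane anchor. Its normalized counts were 17.6, 17.3 and 17.04 in isotype control against 17.9, 15.02 and 14.1 in DTA-1. The isotype libraries lay closest together of any detected member, with a range of 3.15% of their mean. DTA-1 replicate 1 was slightly above them and replicates 2 and 3 were below. Bik had a log2 fold change of −0.14 (95% CI −0.44 to 0.16; edgeR adjusted p 0.857, 0.451 to 1.00 over the alternatives), and −0.25 (95% CI −0.55 to 0.05) without DTA-1 replicate 1.

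Hrk (chr5:118164648-118189478, plus strand) encodes a BH3-only protein best known from neurons. It had 0 counts in each of the 6 libraries, so no fold change was computed.

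**Figure D2:**
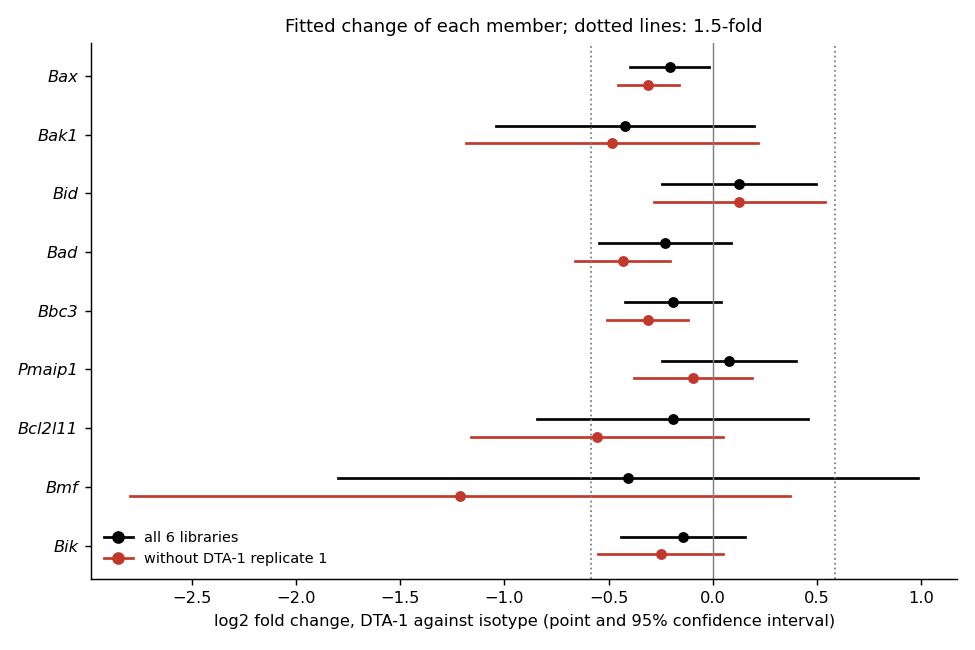
Fitted log2 fold change of DTA-1 against isotype control (horizontal axis, log2 units) with its 95% confidence interval for the 9 members tested, with all 6 libraries in black and without DTA-1 replicate 1 in red. Dotted vertical lines mark 1.5-fold. The red point lies to the left of the black one for every member but Bid, and the intervals of Bmf are the widest.

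The confidence intervals set how large a difference could have been missed. With all libraries the 95% interval lay within 1.5-fold in both directions for 6 members, namely Bax, Bid, Bad, Bbc3, Pmaip1 and Bik. For Bak1 it ran from 0.486 to 1.15 times the isotype level, for Bcl2l11 from 0.557 to 1.37 times, and for Bmf from 0.288 to 1.98 times. Without DTA-1 replicate 1 the log2 interval of Bad ran from −0.66 to −0.20, and so passed 1.5-fold as well. Those of Bax, Bid, Bbc3, Pmaip1 and Bik stayed within 1.5-fold.

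Fitted values were lower in DTA-1 for 7 of 9 members (51.9% of all genes) and higher for Bid and Pmaip1. The median log2 fold change of the members was −0.19, against −0.01 over all genes tested. Without DTA-1 replicate 1, 8 of 9 members had a lower fitted value (52.9% of all genes), and their median was −0.31 against −0.02 over all genes. DTA-1 replicates 2 and 3 both lay below all isotype libraries for 7 members (Bax, Bak1, Bad, Bbc3, Bcl2l11, Bmf and Bik), against 16.1% of all genes tested with all libraries and 15.9% of those tested without DTA-1 replicate 1. Even so, 0 of 9 members were called without DTA-1 replicate 1. Bax, Bad and Bbc3 had an unadjusted p under 0.05 there, against 14% of all genes, and 6.53% with a lower fitted value.

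A further comparison, added after these values were seen, set DTA-1 replicates 2 and 3 against isotype control by the Wald test of DESeq2. Because DTA-1 replicate 1 was left out for its values in these same data, the p-values of this comparison can be too small. In that comparison Bax (log2 fold change −0.30, adjusted p 0.000941), Bad (−0.43, adjusted p 0.0131) and Bbc3 (−0.31, adjusted p 0.0475) had a DESeq2 adjusted p under 0.05. The same held for 5.43% of the 11663 genes given an adjusted p there, and Bmf was given none. With the 1.5-fold limit 0 members and 1.46% of the 11663 genes were called. Across edgeR and DESeq2 Bax, Bad and Bbc3 therefore fell on different sides of the threshold, and in each case the fitted change was under 1.5-fold.

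The library labelled DTA-1 replicate 1 was the highest DTA-1 library for 8 of 9 members (37.5% of all genes), Bid being the exception. It lay above all isotype libraries for 5 members, Bid, Bad, Pmaip1, Bcl2l11 and Bik (22.8% of all genes), and below them for Bak1 (23.1% of all genes). Bax, Bbc3 and Bmf, 3 of 9 members, fell within the isotype range in it (54.1% of all genes), so that values outside the range of 3 isotype libraries were common in this library. By contrast DTA-1 replicate 2 lay below the isotype range for 8 of 9 members (29.4% of all genes) and within it for 0 (43.2% of all genes). DTA-1 replicate 3 lay below it for 7 (30.6% of all genes) and within it for 1, Pmaip1 (41.9% of all genes).

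**Figure D3:**
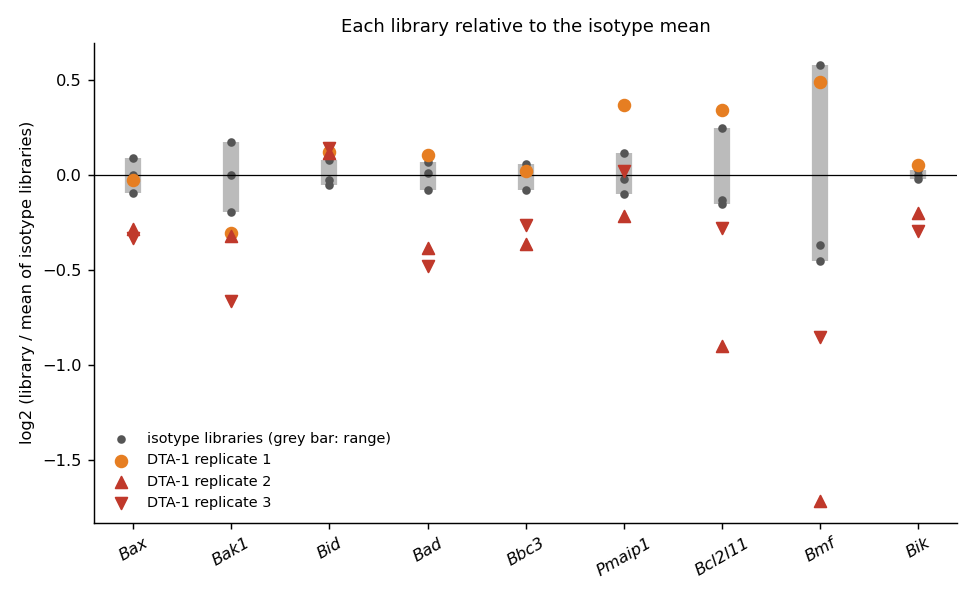
Log2 ratio of each library to the mean of the isotype libraries (vertical axis) for the 9 detected members, with isotype libraries as small grey points over their range (grey bar), DTA-1 replicate 1 as orange circles and DTA-1 replicates 2 and 3 as red triangles. Red triangles lie below the grey bar for Bax, Bak1, Bad, Bbc3, Bcl2l11, Bmf and Bik, whereas the orange circle lies above it for Bid, Bad, Pmaip1, Bcl2l11 and Bik.

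The summed ILC2 markers were 14675 to 15464 in isotype control, 15684 in DTA-1 replicate 1 and up to 20251 in DTA-1. Gata3, Il1rl1 and Kit did not follow this sum. Gata3 was at 1716, 1688 and 1688 in isotype control against 1678, 1525 and 1607 in DTA-1, and Il1rl1 at 1096, 1277 and 1161 against 1286, 1022 and 1022. Kit, which encodes the sort marker CD117, was at 102, 129 and 98.8 in isotype control against 128, 75.8 and 80.8 in DTA-1. All 3 were below each isotype library in DTA-1 replicates 2 and 3, as Bax was. Such a pattern was seen for 15.9% of the genes tested without DTA-1 replicate 1. Tnfrsf18, of the same list, overlapped, at 747, 666 and 740 in isotype control against 712, 756 and 657 in DTA-1. Single values of the other listed ILC2 markers are not reported here. For Kit the log2 fold change was −0.22 (edgeR adjusted p 0.831), and −0.49 without DTA-1 replicate 1 (edgeR adjusted p 0.0789, 0.00125 to 1.00 over the alternatives). Among markers of other cells, the summed endothelial list was 18.4 to 24.4 in isotype control, 18.3 in DTA-1 replicate 1 and down to 10.6 in the other DTA-1 libraries. Of its 5 genes, Cdh5 and Emcn were at 0, and nearly all of the sum was Pecam1, which leukocytes also express (24.4, 18.4 and 22.2 in isotype control against 18.3, 10.4 and 10.8 in DTA-1). The summed eosinophil and mast cell list of 6 genes was 5.36 to 10.2 in isotype control, 8.35 in DTA-1 replicate 1 and up to 22.3 in DTA-1, mainly through Cpa3 (4.37 to 7.49 in isotype control against 6.82, 19.4 and 12.8 in DTA-1). With all libraries neither Pecam1 nor Cpa3 was called by edgeR (adjusted p 0.627 for each). Without DTA-1 replicate 1 edgeR called Pecam1 (log2 fold change −1.03, adjusted p 0.0132) and Cpa3 (1.33, adjusted p 0.0391), as it did 0.744% of all genes. The part of these marker lists in the members' values was not tested. In bulk RNA, fewer cells expressing a gene and less RNA per cell cannot be told apart.

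To compare the members with each other, normalized counts were divided by the summed exon length of each gene. In isotype control Bax stood at 252 normalized counts per kb of exon, above 98.8% of the genes tested. Below it were Bbc3 at 31.7, Bad at 16.3, Bik at 10.9 and Pmaip1 at 9.90 per kb. Bid (2.06 per kb), Bak1 (1.20 per kb), Bcl2l11 (0.745 per kb) and Bmf (0.140 per kb) were far lower, and Hrk was at 0. Only Bik (10.7 to 11.0 per kb) and Pmaip1 (9.23 to 10.7 per kb) overlapped across the isotype libraries, and all other neighbours in this order were separated.

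Bax therefore dominated the family in every library. It held 67.8 to 70.7% of the members' summed normalized counts. Per kb, it exceeded Bak1 197 to 264 times, and Bbc3 exceeded Bcl2l11 by 33.9 to 61.8 times. The per-kb values assume that all annotated exons are used, which makes genes with long annotated exons such as Bcl2l11 (8.03 kb) and Bmf (5.25 kb) appear lower than if a short transcript prevailed.

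**Figure D4:**
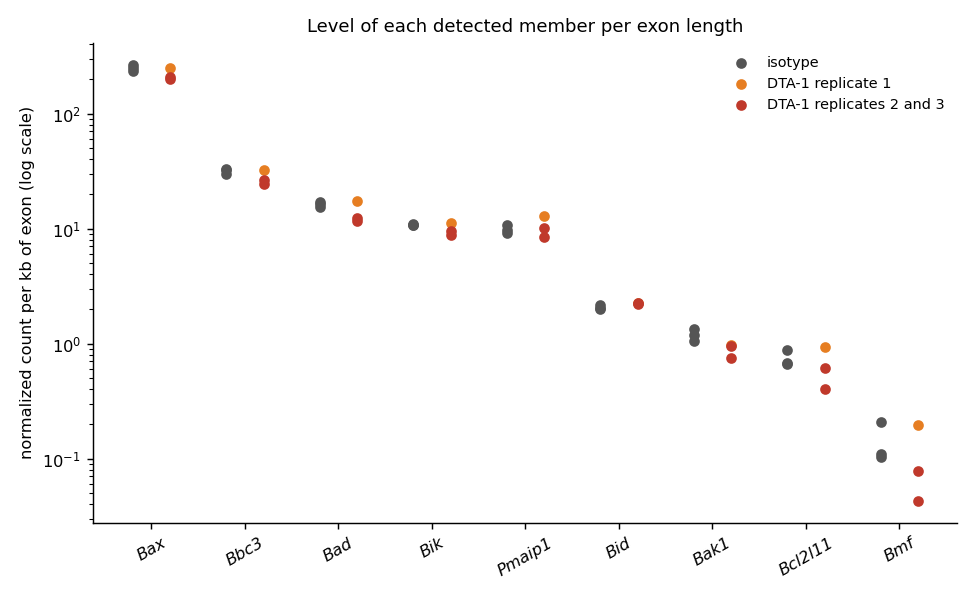
Normalized count per kb of exon (vertical axis, log scale) of the 9 detected members in each library, ordered by their isotype mean, with isotype control in grey, DTA-1 replicate 1 in orange and DTA-1 replicates 2 and 3 in red. Levels run from 252 per kb for Bax to 0.140 per kb for Bmf in the isotype mean, and in the DTA-1 mean Pmaip1 (10.4 per kb) and Bik (9.85 per kb) change places.

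Because Bax had the smallest p among the members, the genes with the most similar profile across the 6 libraries were sought among 4440 genes with a mean of at least 50 normalized counts. Nearest were H2afj, a histone H2A gene, Cox7a2l, which encodes a respiratory chain assembly factor, and Cenpa, which encodes the centromeric histone. Their root mean square differences from Bax were 0.018, 0.022 and 0.027 on the log2 scale, against a median of 0.178.

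Genes around the members were examined as 6 lists of the same pathway, 57 genes in all, of which 54 were tested. None was called by edgeR with all 6 libraries (0% of all genes), without DTA-1 replicate 1 (0.744%) or by DESeq2 (0.152% of genes given an adjusted p). With all 6 libraries 9 of 54 had an unadjusted p under 0.05 in edgeR (7.22% of all genes). Adjusted p-values given for these lists are from edgeR's quasi-likelihood test, and ranges over the alternatives include DESeq2 and limma. Of the pro-survival genes, which encode the direct opponents of the members, 3 of 6 tested had a higher and 3 a lower fitted value, with a median log2 fold change of −0.06 against −0.01 over all genes. Without DTA-1 replicate 1, 2 of 7 tested had a higher and 5 a lower fitted value, with a median of −0.17 against −0.02 over all genes. Bcl2 was at 127, 138 and 144 in isotype control against 132, 109 and 118 in DTA-1 (log2 fold change −0.19, adjusted p 0.688). It followed Bax in that DTA-1 replicate 1 lay within the isotype range and the other DTA-1 libraries below it. Bcl2 had a log2 fold change of −0.27 without DTA-1 replicate 1 (adjusted p 0.152, 0.0487 to 0.999 over the alternatives). Bcl2l1, which encodes BCL-XL, was at 167, 161 and 154 in isotype control against 152, 141 and 144 in DTA-1, with each DTA-1 library below each isotype library (log2 fold change −0.14, adjusted p 0.692). Bcl2l2, which encodes BCL-W, had a log2 fold change of −0.19 (adjusted p 0.947) at 0.972 to 2.62 normalized counts.

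Other BCL2-related genes had 4 higher and 3 lower fitted values of 7 tested (median 0.03). The mitophagy receptor gene Bnip3 was at 163, 170 and 165 in isotype control against 174, 219 and 192 in DTA-1. All DTA-1 libraries were above all isotype libraries, but the log2 fold change of 0.23 had an adjusted p of 0.632, and 0.0718 without DTA-1 replicate 1 (0.00275 to 0.999 over the alternatives). Bcl2l14, with the largest fold change of the list (0.50), had at most 0.705 normalized counts and an adjusted p of 0.899.

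Transcription factors that act upstream of the members had 4 higher and 5 lower fitted values of 9 tested (median −0.01). Foxo3, which encodes an activator of Bcl2l11 and Bbc3, had a log2 fold change of −0.37 (adjusted p 0.737) at 4.45 to 8.33 normalized counts. Ddit3, which encodes the stress factor CHOP, was at 63.9, 53.9 and 56.6 in isotype control against 60.2, 41.3 and 44.7 in DTA-1 (log2 fold change −0.26, adjusted p 0.732). Without DTA-1 replicate 1 it was −0.44 (adjusted p 0.0818, 0.00719 to 0.999 over the alternatives). As with Bad and Bbc3, the low libraries were DTA-1 replicates 2 and 3.

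Among 10 other p53 targets, 9 had a lower fitted value (51.9% of all genes) and 1 a higher one, with a median log2 fold change of −0.11. Those with the largest changes were Eda2r, a TNF receptor family gene (−0.46, adjusted p 0.838), and Trp53inp1, a stress response gene (−0.41, adjusted p 0.632). Trp53inp1 was at 58.3, 73.5 and 63.2 in isotype control against 59.7, 39.8 and 47.7 in DTA-1, and gave a log2 fold change of −0.57 (adjusted p 0.0570) once DTA-1 replicate 1 was left out (0.000563 to 0.999 over the alternatives). Cdkn1a was the target with a higher fitted value (log2 fold change 0.06, adjusted p 0.906), and Mdm2 was at −0.02 (adjusted p 0.964). Trp53 itself, which encodes p53, was at 120 to 133 in isotype control and 125 to 148 in DTA-1 (log2 fold change 0.11, adjusted p 0.785).

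Partners and modifiers of the members had 7 higher and 5 lower fitted values of 12 tested (median 0.00). The kinase genes Pim2 and Pim3, whose products phosphorylate BAD, stood on opposite sides. Pim3 was at 47.7, 43.1 and 46.6 in isotype control against 45.6, 67.7 and 66.0 in DTA-1, and Pim2 at 44.4, 45.6 and 50.1 against 41.4, 32.8 and 33.9. With all libraries neither passed (adjusted p 0.632 and 0.627). Without DTA-1 replicate 1, Pim3 rose by 0.55 on the log2 scale (adjusted p 0.0142) and Pim2 fell by 0.49 on the log2 scale (adjusted p 0.0481), which are changes under 1.5-fold. Over the alternatives the largest adjusted p was 0.999 for both, and the smallest was 9.54e-06 for Pim3 and 0.0021 for Pim2. In that comparison 1.7% of all genes had an adjusted p under 0.05.

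Downstream of mitochondria, 7 of 10 apoptosome and caspase genes had a higher and 3 a lower fitted value (median 0.04). Casp9, which encodes the initiator caspase of the apoptosome, had a log2 fold change of −0.20 (adjusted p 0.769).

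**Figure D5:**
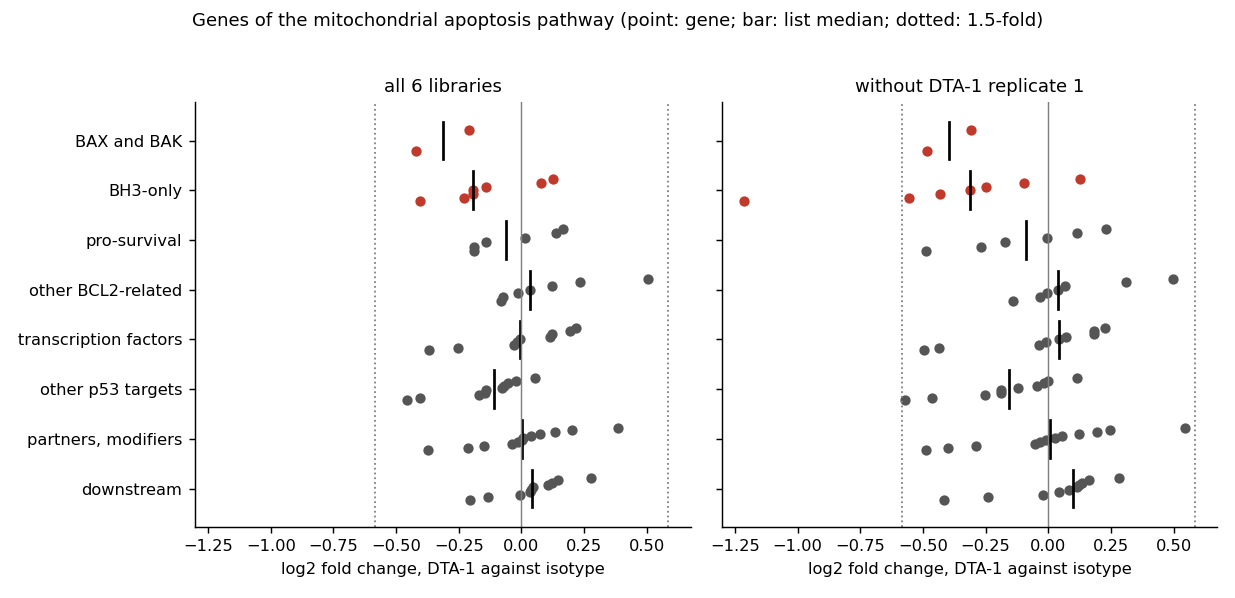
Log2 fold change of DTA-1 against isotype control (horizontal axes, log2 units) for the members (red) and the 54 tested genes of 6 pathway lists (grey), with all 6 libraries on the left and without DTA-1 replicate 1 on the right. Each point is 1 gene, black bars are list medians and dotted lines mark 1.5-fold. With all libraries every point lies within 1.5-fold, and without DTA-1 replicate 1 only Bmf (−1.21) lies outside. Both panels hold only genes tested with all 6 libraries. The pro-survival gene tested only without DTA-1 replicate 1 is therefore not drawn or included in the bar on the right.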

How the data were processed

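RNA was sequenced from 3 isotype control and 3 DTA-1 libraries. The authors aligned and quantified the reads with Partek Genomics Suite 7.0 and deposited expected counts per gene without normalization. The submitters' processing notes also list bcl2fastq 2.17.1.14, STAR 2.5.3a and mm10. The annotation release, the use of strand and the assignment of shared reads are not given in the sources used here. Estimated counts can divide the reads of overlapping genes.

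Expected counts were rounded and fitted in R 4.3.3 with edgeR 4.0.16 (filterByExpr, TMM, robust glmQLFit, glmQLFTest) without covariates. An exact permutation test of 3 against 3 libraries cannot give a p below 0.10, so none was run. Alternatives were DESeq2 1.42.0, limma-trend (limma 3.58.1, prior count 2), other size factors and filters, a replicate block, other thresholds and each library left out. DESeq2 on DTA-1 replicates 2 and 3 was added after seeing the data. The edgeR fit was also run on simulated counts. Their changes were larger than those fitted for the members with all 6 libraries, and no DTA-1 library was set close to isotype control. That run therefore does not show how well changes such as those of the members would be found. Coordinates, exon lengths and coding sequences are those of GENCODE M21 (GRCm38), read with Biopython 1.88. Ends are given 1 base before the deposited stop, which lay 1 base past the GENCODE end for 97% of shared symbols. Plots were drawn with matplotlib 3.10.9.

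All members were named. From each pathway list every called gene and the 2 tested genes with the largest absolute log2 fold change were named, along with the 3 genes nearest to the member with the smallest p. Mcl1, Bcl2l1, Trp53, Cdkn1a, Mdm2 and the cell type markers were named outside this rule, after their values were seen. Some genes that the rule or the lists hold are not reported here. Members and lists were chosen with earlier results of these data known.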

Additional observations from a re-analysis of the deposited data

How the results depend on the processing

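With all 6 libraries edgeR called 0 genes, and 1037 had an unadjusted p under 0.05. The count was 2 with no filter on low counts, 1 with the replicate block, 25 by DESeq2's Wald test, 170 by DESeq2 on DTA-1 replicates 2 and 3, and 337 by unadjusted p and 1.5-fold. Leaving out one library at a time gave 0 to 111 genes, and 111 came from leaving out DTA-1 replicate 1; the cause was not tested. The members called and the pathway genes called were 0 under each of these settings. Of 125 alternative fold changes of members, 121 kept their direction and 4 reversed it, and none passed adjusted p and 1.5-fold together. On adjusted p alone, Bax, Bad and Bbc3 passed 0.05 in DESeq2 on DTA-1 replicates 2 and 3, where p-values can be too small. On fold change alone, Bmf passed 1.5-fold there, without DTA-1 replicate 1 and without isotype replicate 3. Leaving out one library at a time, the log2 fold change of Pmaip1 ran from −0.0949 (without DTA-1 replicate 1) to 0.208, that of Bcl2l11 from −0.557 to 0.0663 (without DTA-1 replicate 2), and that of Bmf from −1.21 to 0.0050 (without isotype replicate 1). DESeq2 on DTA-1 replicates 2 and 3 gave −0.0882 for Pmaip1. Across genes, libraries with the same replicate number did not deviate together from their group means (r −0.01, −0.00 and 0.02). These values cannot exclude pairing by mouse or culture, because they cover all genes tested, including those with few counts. With the replicate block 0 members were called. Bmf, with 7 counts in 1 library, could not be tested under the filter of 10 counts in every library. No adjusted p of Bmf was given by DESeq2 on DTA-1 replicates 2 and 3. Depth limits Bmf, Bak1 and Bcl2l11 most, and Hrk entirely.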
